A study of Mus musculus with 16 samples.

Results

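The genes described here encode proteins of the red-cell membrane skeleton, the meshwork under the membrane of the red cell. They are the 8 genes *Slc4a1*, *Ank1*, *Epb42*, *Sptb*, *Epb41*, *Dmtn*, *Add2* and *Tmod1*, chosen by name and found by symbol. The choice was made with earlier results of these data known. All 8 were among the 15386 genes of the RNA-seq table, and 7 were among the 13490 genes of the m6A table, which had no row for *Slc4a1*. The analysis covered 2 mouse experiments. RNA-seq was made from bone marrow CFU-E cells of control mice (3 libraries) and from CFU-E Kit-lo cells labelled *Mettl3*-deficient (3 libraries), and m6A IP (2 libraries) and input (2 libraries) were made from control CFU-E cells. CFU-E cells are committed erythroid progenitors, defined in the study's methods as cells that carry Kit and CD71 and lack CD16/32, CD41, CD34, Sca1 and the lineage markers, and the Kit-lo cells are the CFU-E of the *Mettl3*-deficient mice that had lost most of their Kit. The RNA-seq libraries held 17429262 to 21329242 counts and the m6A libraries 19421059 to 37142742. METTL3 is the enzyme that places N6-methyladenosine (m6A) on mRNA. The mice were on a C57BL/6 background, male and female, and 10 to 16 weeks old. The *Mettl3*-deficient mice were *Mettl3* fl/fl with EpoR-tdTomato-Cre, a Cre expressed with the erythropoietin receptor, which is also active in macrophages of the erythroid niche. The genotype of the control mice of these libraries is not spelled out in the sources used here, and no control Kit-lo library was analysed, so genotype and Kit level cannot be told apart. Nothing in the labels says whether libraries of a group came from separate mice, so p-values measure the spread between libraries, which may be technical.

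The membrane skeleton is built of spectrin filaments that meet at short actin filaments. It is fastened to the lipid bilayer at ankyrin-centred complexes around the anion exchanger, and at the actin junctions. Its proteins give the red cell its shape and its ability to deform, and defects in several of the genes cause hereditary spherocytosis or elliptocytosis. During terminal differentiation the skeleton is assembled in steps, and the anion exchanger is a protein of the later erythroblasts.

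The label checks came out as follows. *Kit* was at 544 to 629 CPM (the normalised count, scaled to library size) in control CFU-E and at 44.0 to 68.5 CPM in the Kit-lo libraries, a log2 fold change of -3.44 (SE 0.15). *Mettl3* was at 115 to 130 CPM in control CFU-E and at 108 to 127 CPM in the libraries labelled *Mettl3*-deficient, a log2 fold change of -0.07 with an adjusted p of 0.63 in edgeR. The counts cover the whole gene, so they do not show whether the floxed part was lost. The summed level of 5 CFU-E markers (*Kit*, *Tfrc*, *Gata1*, *Klf1* and *Epor*) was 3020 to 3110 CPM in control CFU-E and 3010 to 3140 CPM in the Kit-lo libraries. Within that sum *Kit* fell while *Klf1*, an erythroid transcription factor, rose from a mean of 958 to 1440 CPM and *Epor*, the erythropoietin receptor, from 225 to 340 CPM. Both rose by 0.59 on the log2 scale, near the fold threshold of 1.5 used here, and lost the call under 5 (*Klf1*) and 4 (*Epor*) of 14 alternatives, the upper quartile normalization among them.

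Promoter sequences are shown for the members with the largest and the smallest RNA change for which RefSeq (GRCm38.p6) had an entry, *Tmod1* and *Add2*. Each line is the stretch from 60 to 31 bases before the start annotated by RefSeq, on the plus strand, with matches to CCNCNCCC, a motif bound by Klf-type factors, on either strand in capitals. *Tmod1* is read from chr4:46039162-46039191 and *Add2* from chr6:86028621-86028650. The RefSeq start of *Tmod1*, 46039222, lies 287 bases inside the gene as GENCODE annotates it, while both sources give the same start for *Add2*.
Tmod1: GGGCGGGGagggcggcgggttgGGGCGGGG
Add2: gcccaggctgctgcaGGGCGCGGGCGGGGa

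The motif was thus present in both promoters, that of the gene that rose by 3.77 on the log2 scale and that of the gene that moved by 0.23. Of the 8 members, 5 had a promoter entry in the RefSeq table, with 7 starts in all, 3 of them for *Epb41*. In the 250 bases before the start, CCNCNCCC was found for *Sptb*, *Add2* and *Tmod1* and for 2 of the 3 starts of *Epb41*, against 45.9% of all 32851 promoters. The letters AGATAA, which Gata-type factors bind, were found on the opposite strand of *Epb42* alone. TGATAA, also bound by them, was found in none of the 7. One or the other of these 2 motifs is present in 16.6% of all promoters. A match is a run of letters and not a site of binding.

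The RNA of the membrane skeleton genes was higher in Kit-lo than in control CFU-E, by amounts that ranged from 1.18-fold to 159-fold. All 8 genes had every Kit-lo library above every control library, which was so for 23.5% of the 11979 genes tested. Differentially expressed genes (DEGs) were defined by a fold change of at least 1.5 and an adjusted p under 0.05 in edgeR. By this rule 6 of the 8 rose and 0 fell, against 12.1% of all genes tested that rose and 9.83% that fell. The other two, *Epb41* and *Add2*, passed on the adjusted p alone, as did 17.6% of all genes in the upward direction. The median log2 fold change of the 8 was 1.44, and that of all genes tested was 0.01. Because the 8 were chosen with earlier results of these data known, these shares and medians describe the set and do not test it. Each of the 8 passed the filter on low counts in either group taken alone.

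**Figure D1:**
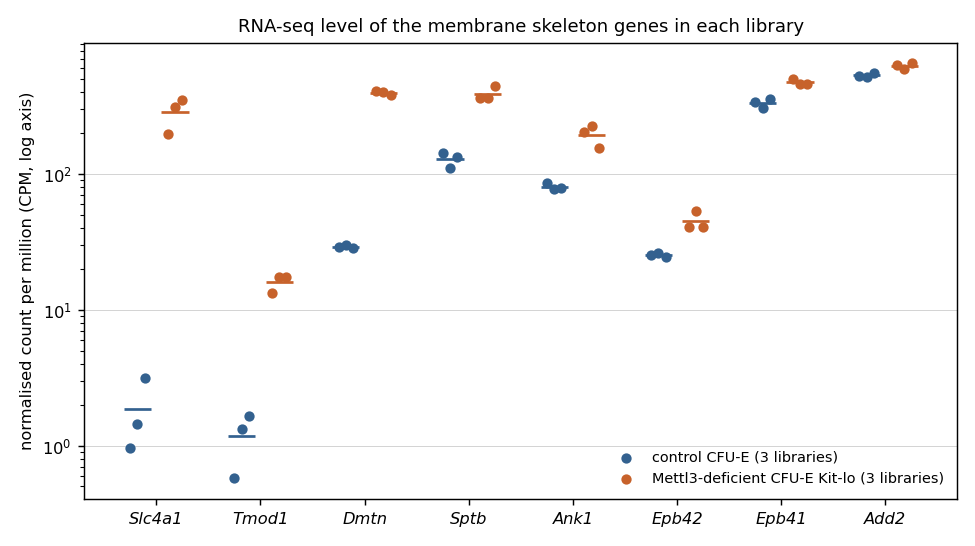
Normalised RNA-seq level (CPM, log axis) of the 8 membrane skeleton genes, with 1 point per library and a line at the mean of each group of 3, ordered by fold change. The Kit-lo points lie above the control points for every gene, by a wide gap for *Slc4a1*, *Tmod1* and *Dmtn* and by a narrow one for *Add2*.

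The genes of the ankyrin complex were led by *Slc4a1* (ENSMUSG00000006574, chromosome 11, 102348824 to 102366203, minus strand), which encodes the anion exchanger, the most abundant membrane protein of the mature red cell. In control CFU-E *Slc4a1* was at 0.958, 1.43 and 3.15 CPM, from counts of 20, 25 and 55. In the Kit-lo libraries it was at 198, 313 and 352 CPM. It was close to absent in all 3 control libraries and among the well-expressed genes in all 3 Kit-lo libraries. The log2 fold change of *Slc4a1* was 7.31 (SE 0.36, adjusted p = 9.9e-07), the sixth largest of the 11979 genes. Leaving out 1 library at a time moved the log2 fold change between 6.96 and 7.92.

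*Ank1* (ENSMUSG00000031543, chromosome 8, 22974844 to 23150497, plus strand) encodes erythroid ankyrin, which links the anion exchanger to spectrin. *Ank1* was at 85.6, 77.6 and 78.3 CPM in control CFU-E and at 205, 224 and 156 CPM in the Kit-lo libraries. It was thus well expressed in CFU-E already, and rose by 1.28 on the log2 scale (SE 0.13, adjusted p = 6.2e-05). *Epb42* (ENSMUSG00000023216, chromosome 2, 121017891 to 121037072, minus strand) encodes a transglutaminase-like protein without enzyme activity that binds the anion exchanger and ankyrin. *Epb42* was at 25.5, 26.3 and 24.6 CPM in control CFU-E and at 41.0, 53.0 and 40.4 CPM in the Kit-lo libraries. Its log2 fold change of 0.81 (SE 0.14, adjusted p = 0.0016) was the smallest of the 6 that rose. The 3 partners of this complex therefore rose by very different amounts, from 1.76-fold for *Epb42* to 2.42-fold for *Ank1* and 159-fold for *Slc4a1*.

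*Sptb* (ENSMUSG00000021061, chromosome 12, 76580488 to 76710547, minus strand) encodes erythroid beta-spectrin, a chain of the spectrin filaments. *Sptb* was at 143, 110 and 134 CPM in control CFU-E and at 365, 365 and 443 CPM in the Kit-lo libraries, with no overlap. It rose by 1.60 on the log2 scale (SE 0.12, adjusted p = 8.8e-06).

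The genes of the actin junction split. *Dmtn* (ENSMUSG00000022099, chromosome 14, 70601263 to 70636048, minus strand) encodes dematin, which bundles actin and ties it to spectrin. *Dmtn* was at 28.9, 30.1 and 28.5 CPM in control CFU-E and at 411, 400 and 379 CPM in the Kit-lo libraries. Both groups were tight, and *Dmtn* rose by 3.77 on the log2 scale (SE 0.085, adjusted p = 1.1e-08), or 13.6-fold. *Tmod1* (ENSMUSG00000028328, chromosome 4, 46038935 to 46116032, plus strand) encodes tropomodulin, which caps the slow-growing end of actin filaments. *Tmod1* was at 0.575, 1.32 and 1.66 CPM in control CFU-E, from counts of 12, 23 and 29, and at 13.2, 17.4 and 17.5 CPM in the Kit-lo libraries. It rose by 3.77 on the log2 scale (SE 0.35, adjusted p = 3.7e-05), much as *Dmtn* did, from few counts and with a wider error.

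*Epb41* (ENSMUSG00000028906, chromosome 4, 131923413 to 132075321, minus strand) encodes the protein that strengthens the contact of spectrin with actin. *Epb41* was at 337, 308 and 356 CPM in control CFU-E and at 499, 459 and 464 CPM in the Kit-lo libraries. The log2 fold change of *Epb41* was 0.51 (SE 0.081, adjusted p = 0.00097), or 1.42-fold, below the fold threshold of a DEG. *Add2* (ENSMUSG00000030000, chromosome 6, 86028681 to 86124409, plus strand) encodes beta-adducin, which caps the fast-growing end of actin filaments and recruits spectrin to them. *Add2* was at 526, 519 and 553 CPM in control CFU-E and at 634, 592 and 652 CPM in the Kit-lo libraries. Its log2 fold change was 0.23 (SE 0.072, adjusted p = 0.030), or 1.18-fold, the smallest of the 8, and the 14 alternatives run gave adjusted p-values from 0.0064 to 0.11. These 2 members, with the smallest change, were the 2 with the highest level per kb of transcript in control CFU-E, as given next.

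Scaled to length, the order of the members changed between the groups. In control CFU-E the level per kb of the longest annotated transcript was highest for *Add2*, at 65.1 ± 2.19 CPM per kb (SD, n = 3), and next for *Epb41*, at 40.2 ± 2.95. *Sptb* followed at 12.4 ± 1.61, *Ank1* at 9.62 ± 0.53, *Epb42* at 6.19 ± 0.213 and *Dmtn* at 5.38 ± 0.152 CPM per kb, with no overlap between neighbours. *Slc4a1*, at 0.406 ± 0.254, and *Tmod1*, at 0.375 ± 0.176 CPM per kb, were lowest and overlapped. In the Kit-lo libraries *Add2* was at 76.6 ± 3.77 CPM per kb, *Dmtn* at 73.2 ± 3.01, *Slc4a1* at 63.3 ± 17.7 and *Epb41* at 57.1 ± 2.67 (SD, n = 3). Each of these 4 overlapped the next in that order. *Sptb*, at 37.6 ± 4.36, *Ank1*, at 23.3 ± 4.18, *Epb42*, at 10.9 ± 1.73, and *Tmod1*, at 5.08 ± 0.778 CPM per kb, came below them without overlap. With this length *Dmtn* moved from the sixth place to the second and *Slc4a1* from the seventh to the third, while *Add2* stayed first and *Tmod1* last.

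**Figure D2:**
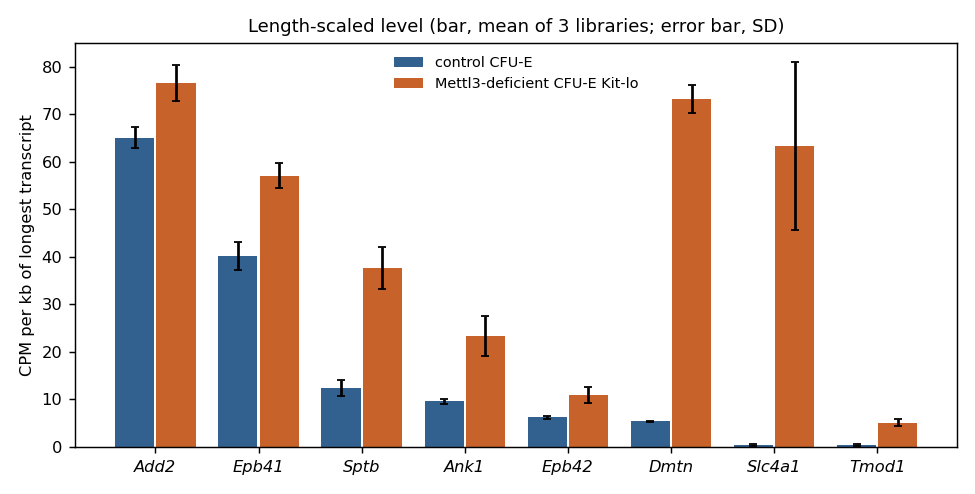
Level per kb of the longest annotated transcript (CPM per kb, linear axis from 0) in control CFU-E and Kit-lo, with bars for the mean of 3 libraries and error bars for the SD. *Add2* is highest in both groups, while *Dmtn* and *Slc4a1* go from near the bottom to 73.2 and 63.3 CPM per kb.

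Summed over the 8 genes, the level per kb was 141, 133 and 145 in control CFU-E and 331, 351 and 360 in the Kit-lo libraries. *Add2* held 46.6% of the sum of the group means in control CFU-E and 22.1% in Kit-lo. The share of *Epb41* was 28.8% and then 16.4%. *Dmtn* held 3.85% and then 21.1%, and *Slc4a1* 0.291% and then 18.2%. The shares of *Sptb* (8.87% and 10.8%) and *Ank1* (6.89% and 6.72%) lay close together in both groups. These shares are descriptions and were not tested. The longest annotated transcript need not be the one made in these cells. With the union of all annotated exons as length the order in control CFU-E was the same, but that in Kit-lo was not. There *Slc4a1* came after *Add2*, at 58.8 ± 16.4 CPM per kb, *Dmtn* next, at 40.5 ± 1.66, and *Epb41* after *Sptb*.

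The ratio of 2 members within a library does not depend on normalization, so it shows whether the transcripts of 2 members moved together. Ratios of all 28 pairs were computed, and 7 pairs from the same complex or junction are described. The smallest p that an exact two-sided permutation test of 3 against 3 can give is 0.1, which became 0.112 after Benjamini-Hochberg adjustment over the 28, so no pair could pass a threshold of 0.05. The ratios of 25 of the 28 pairs (89.3%) did not overlap between the groups, and those of 6 of the 7 described here did not, a share near that of all pairs. The log2 ratio of *Ank1* to *Slc4a1* was 6.45, 5.73 and 4.62 in control CFU-E and 0.05, -0.48 and -1.17 in the Kit-lo libraries. That of *Dmtn* to *Add2*, which meet at the actin junction, was -4.19, -4.11 and -4.28 in control CFU-E and -0.62, -0.57 and -0.78 in Kit-lo. The log2 ratio of *Epb41* to *Sptb* differed by -1.10 in Kit-lo from control CFU-E, that of *Epb42* to *Slc4a1* by -6.59, that of *Epb42* to *Ank1* by -0.46 and that of *Tmod1* to *Sptb* by 2.24. The ratios of *Ank1* to *Sptb* overlapped, at -0.77 to -0.51 in control CFU-E and -1.5 to -0.70 in Kit-lo (exact permutation p = 0.3).

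**Figure D3:**
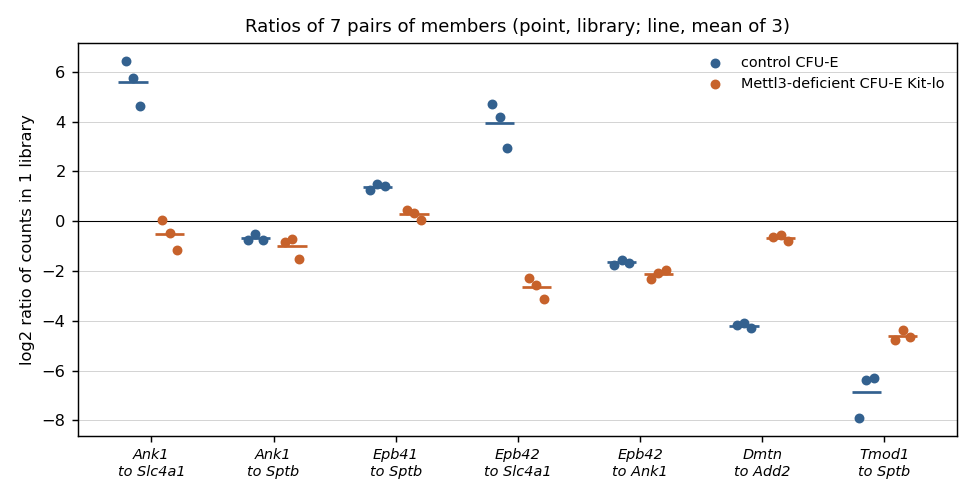
Log2 ratio of the counts of 2 members in each library, for 7 pairs from the same complex or junction, with 1 point per library and a line at the mean of 3. The 2 groups are apart for 6 pairs, as for 25 of all 28 pairs of members, most for the pairs with *Slc4a1*, and overlap for *Ank1* to *Sptb*.

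Of 17 other genes of the spectrin and actin skeleton, all tested, 1 rose and 3 fell, against 12.1% and 9.83% of all genes tested, and 13 were called in neither direction. The median log2 fold change was -0.12. *Tpm1*, a tropomyosin that lies along the actin filaments, rose by 0.76 on the log2 scale (SE 0.11, adjusted p = 0.00053). *Actg1*, cytoplasmic gamma-actin, fell by 1.06 (SE 0.090, adjusted p = 2e-05), from 358 ± 14.3 to 172 ± 17.1 CPM (SD, n = 3). *Myh10*, a nonmuscle myosin heavy chain, fell by 0.75 and *Capza2*, a subunit of the actin capping protein, by 0.72. *Add1*, alpha-adducin and the partner of *Add2*, was at 190 to 205 CPM in control CFU-E and at 128 to 158 CPM in Kit-lo, a log2 fold change of -0.47 (adjusted p = 0.0037) that stayed under the fold threshold. *Tmod3*, the tropomodulin that most cell types express, had a mean of 130 ± 9.65 CPM in control CFU-E and of 129 ± 8.52 CPM in Kit-lo (SD, n = 3), a log2 fold change of -0.01 whose sign turned with library sizes alone.

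Of 20 genes for other membrane proteins that the skeleton holds or accompanies, 19 were tested, 5 rose and 2 fell, against 12.1% and 9.83% of all genes tested, with a median log2 fold change of 0.36. *Abcb6*, a porphyrin transporter, rose by 1.5 (SE 0.084) and *Xk*, a membrane protein linked to the Kell antigen, by 0.98 (SE 0.13). *Rhag* and *Rhd*, of the Rh complex, each rose by 0.71, and *Icam4*, an adhesion protein of the same complex, by 0.68. *Gypc*, the glycophorin that is bound by the product of *Epb41*, fell by 0.61, from 232 ± 18.4 to 153 ± 9.81 CPM, and *Flot1*, a lipid raft protein, by 0.59. The changes of *Gypc* and *Flot1* lay near the fold threshold, and with library sizes alone as normalization neither passed it. *Gypc* lost the call in 3 of 14 alternatives, 2 of them with a library left out. *Flot1* lost it in 6, which were 3 with a library left out, the stricter filter, library sizes alone and the replicate number as a block, with log2 fold changes of -0.66 to -0.49 over the 14.

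Among 22 paralogs of the 8 genes, 13 were tested, 3 rose and 1 fell, against the same 12.1% and 9.83%, with a median log2 fold change of 0.27. *Tgm2*, a transglutaminase related to *Epb42*, rose by 1.82 (SE 0.13, adjusted p = 9.2e-06), from 11.5 ± 0.608 to 40.7 ± 2.39 CPM. *Add3*, gamma-adducin, rose by 0.61 and *Epb41l2*, a relative of *Epb41*, by 0.70. *Add3* lost the call in 3 of 14 alternatives. *Epb41l2* lost it in 7, 4 of them with a library left out and 1 with the replicate number as a block, with adjusted p-values of up to 0.15. *Slc4a7*, a bicarbonate transporter of the family of *Slc4a1*, fell by 0.84. The summed level of the 19 paralogs in the table was 170 to 187 CPM in control CFU-E and 227 to 239 CPM in Kit-lo.

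**Figure D4:**
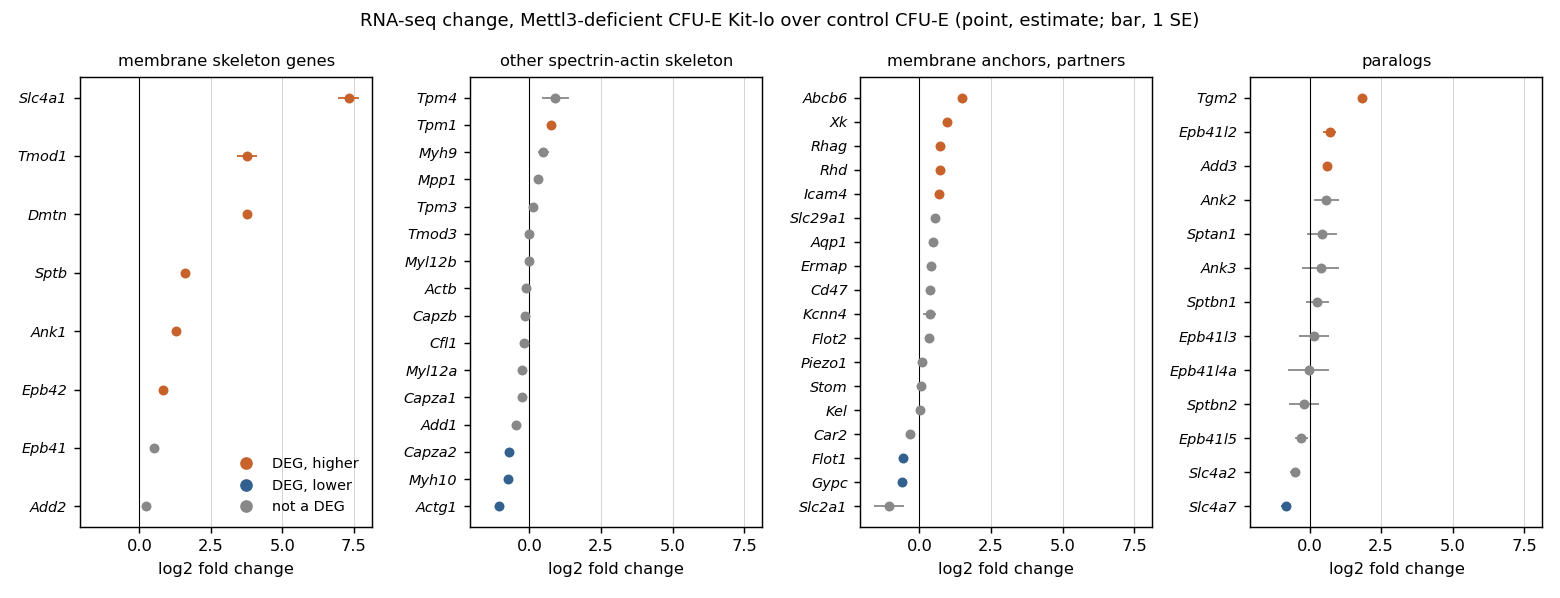
Log2 fold change of Kit-lo over control CFU-E (points, with bars of 1 SE) for the 8 membrane skeleton genes and 3 lists of related genes, all tested but 2 that are not shown, with DEGs in colour. The 8 genes all lie above 0, while the other skeleton genes lie on both sides of it.

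Markers of later erythroblasts moved with the 8 genes. *Hbb-bs*, a beta-globin gene, was at 3.06 to 4.41 CPM in control CFU-E and at 302 to 622 CPM in Kit-lo, a log2 fold change of 6.84 (SE 0.30). *Hba-a1*, alpha-globin, rose by 4.99, *Alas2*, the first enzyme of heme synthesis in erythroid cells, by 5.58 and *Slc25a37*, a mitochondrial iron importer, by 2.19. In all, 4 of the 5 markers of this list that were tested rose, against 12.1% of all genes tested. Their summed level was 151, 156 and 175 CPM in control CFU-E and 1360, 2310 and 1820 CPM in Kit-lo. The lineage antibodies named in the study's methods include one to a surface antigen of erythroblasts and red cells. How many cells that carry it remained after sorting was not tested. In these bulk libraries a larger share of later cells and more RNA per cell cannot be told apart, and the part of either in the change of the 8 genes was not tested. *Slc4a1*, *Tmod1*, *Hbb-bs*, *Hba-a1*, *Alas2* and *Slc25a37* were all lowest in replicate 1 of the 3 Kit-lo libraries. *Epb41* and *Dmtn* were highest in that library.

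Markers of other lineages were low. The 8 macrophage markers summed to 8.86 to 14.5 CPM in control CFU-E and 8.45 to 9.44 CPM in Kit-lo, *Cd68* was the most abundant, and *Adgre1* had 0 counts in every Kit-lo library and 2 in every control library. The 8 granulocyte markers, led by *Mpo* in control CFU-E, summed to 25.5 to 37.8 CPM there and at most 24.0 CPM in Kit-lo. In Kit-lo the mean of *Prtn3*, of the same list, was 8.54 CPM and lay above that of *Mpo*. The 4 megakaryocyte markers in the table, led by *Vwf*, summed to at most 20.4 CPM in control CFU-E and at most 25.9 CPM in Kit-lo, and mast cell and lymphocyte markers to at most 5.10 CPM in any library. Single genes of these lists were called. The megakaryocyte markers *Itga2b*, an integrin subunit, and *Gp9*, a platelet glycoprotein, rose from means of 2.68 to 8.24 CPM (adjusted p = 0.0096) and of 1.42 to 3.52 CPM (adjusted p = 0.023). *Itga2b* kept the call in all 14 alternatives and *Gp9* lost it in 4 that left out a library. *Mpo*, a granule enzyme, fell from a mean of 19.6 to 5.01 CPM (adjusted p = 0.023) and lost the call in 4 alternatives, and *Ngp*, a granule protein, rose from 0.178 to 1.82 CPM (adjusted p = 0.0091). With a library left out the log2 fold change lay between -3.04 and -1.47 for *Mpo* and between 2.75 and 4.08 for *Ngp*. *C1qa*, a complement gene of macrophages, fell from 1.30 to 0.342 CPM (adjusted p = 0.031), and *Igll1*, a gene of B cell precursors, had 0 counts in every control library and 0.680 to 0.779 CPM in Kit-lo. The sort selected against CD41, the product of *Itga2b*, and CD16/32. The lineage antibodies were to Gr-1 and CD11b (myeloid cells), B220 (B cells) and CD3e (T cells), besides the erythroblast antigen. How many cells of these lineages remained after sorting was not tested. The part of these cell types in the change of the 8 genes was not tested. The 3 earlier progenitor markers measured summed to 33.3 to 37.2 CPM in control CFU-E and 2.49 to 2.86 CPM in Kit-lo. Nearly all of the control sum was *Gata2*, at 31.6 to 36.4 CPM there and 1.92 to 2.82 CPM in Kit-lo. It was the only gene of this list that was tested, so the fall is that of 1 gene.

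The genes with the profile most like the mean of the 8 over the 6 RNA-seq libraries, among genes with a mean log2 CPM of at least 4, were *Trim10*, *Mad2l1bp*, *Cdc25b*, *Ak1* and *Fam210b*. Their Euclidean distances to that mean, on centred log2 CPM, were 0.396 to 0.452, and their log2 fold changes 2.14 to 2.36. As they were picked for closeness to that mean in these libraries, their fold changes follow from the choice. The members themselves lay at 1.08 (*Sptb*) to 6.12 (*Slc4a1*) from their own mean, ranks 165 and 11808 among all genes tested.

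The m6A experiment asked which transcripts of control CFU-E an antibody to m6A enriched over input. A gene was called m6A-modified where IP exceeded input with an adjusted p under 0.05 in edgeR. Of the 7 membrane skeleton genes in that table, all tested, 1 was m6A-modified and 1 was lower in IP. Among all 11447 genes tested, 7.9% were m6A-modified and 7.86% were lower in IP. The normalization centres the fold changes, so higher and lower in IP are relative to the bulk of transcripts. The median log2 of IP over input was 0.42 for the 7 and 0.06 for all genes tested. These libraries read the 3′ ends of transcripts, and their CPM values were normalised apart from those of the RNA-seq and are not compared with them.

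*Epb41* was the member called m6A-modified. It was at 9.35 and 8.21 CPM in input and at 21.4 and 16.9 CPM in IP, so both IP libraries lay above both input libraries, which was so for 32.2% of all genes tested. The log2 of IP over input for *Epb41* was 1.12 (SE 0.27, adjusted p = 0.021). The call was lost without input replicate 1 (1.20, adjusted p = 0.11), without input replicate 2 (1.03, adjusted p = 0.11) and without IP replicate 1 (0.92, adjusted p = 0.074).

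*Tmod1* was the member lower in IP. It was at 5.86 and 8.54 CPM in input and at 1.53 and 1.06 CPM in IP, a log2 of IP over input of -2.44 (SE 0.38, adjusted p = 0.0022), or 5.42-fold lower. It stayed lower in IP, with adjusted p-values of at most 0.0083, under all 12 alternatives run. Its exons share 1287 bases with *Tstd2* on the opposite strand, all in the last exon, of which they make up 74.9%. The strand used in counting is not given in the sources used here, so reads in that stretch cannot be assigned with certainty. *Tstd2* itself was at 9.35 and 13.7 CPM in input and 15.5 and 12.4 CPM in IP (log2 0.28, adjusted p = 0.54). In the RNA-seq *Tstd2* was at 64.4 to 75.8 CPM in control CFU-E and at 52.7 to 65.8 CPM in Kit-lo, a log2 fold change of -0.23 (adjusted p = 0.18).

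The other 5 genes passed in neither direction. *Add2* was at 94.3 and 75.2 CPM in input and at 63.5 and 53.2 CPM in IP (log2 -0.54, SE 0.23, adjusted p = 0.14). With the replicate number as a block *Add2* was called lower in IP (-0.53, adjusted p = 0.022). *Dmtn* was at 1.37 and 1.52 CPM in input and at 3.74 and 2.21 CPM in IP (log2 1.06, SE 0.43, adjusted p = 0.12). *Epb42* was at 2.78 and 1.41 CPM in input and at 3.91 and 3.52 CPM in IP (log2 0.82, adjusted p = 0.21). Both IP libraries lay above both input libraries for *Dmtn* and *Epb42* too, and below them for *Add2*, as for 28.7% of all genes tested. Counts of *Dmtn* and *Epb42* in input were 25 to 63. *Sptb* was at 6.04 and 4.22 CPM in input and at 8.22 and 5.43 CPM in IP (log2 0.42, adjusted p = 0.43), and *Ank1* at 13.4 and 13.8 CPM in input and at 13.8 and 12.3 CPM in IP (log2 -0.06, adjusted p = 0.91). Both overlapped, and the sign for *Ank1* turned with the normalization.

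**Figure D5:**
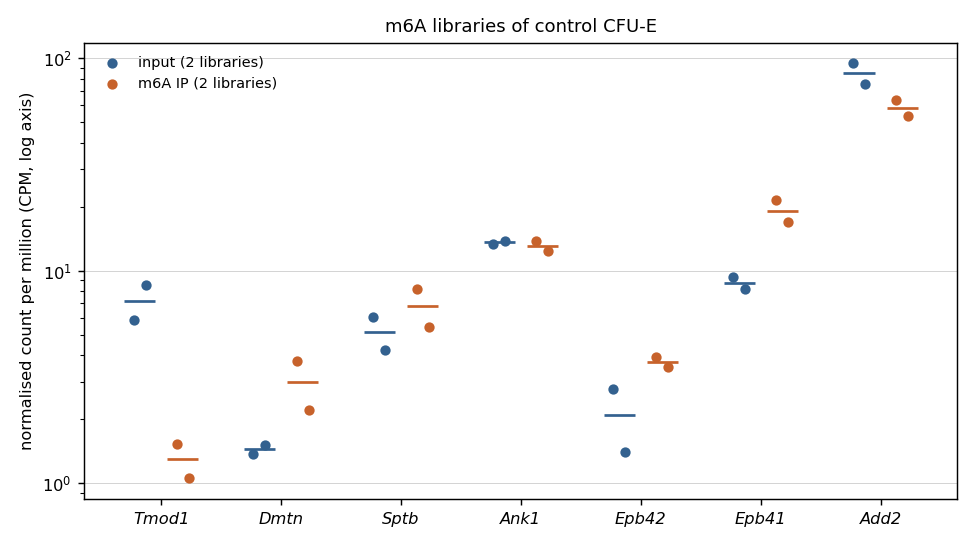
Normalised level (CPM, log axis) of the 7 membrane skeleton genes of the m6A table in input and IP of control CFU-E, with 1 point per library and a line at the mean of 2. *Tmod1* lies lower in IP and *Epb41* higher, and *Ank1* and *Sptb* overlap.

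Among the related lists, 3 of the 17 other skeleton genes were m6A-modified, against 7.9% of all genes tested, and 0 were lower in IP, against 7.86%. Of these, *Myh10* had a log2 of IP over input of 1.25 (adjusted p = 0.020) and *Capza2* of 0.79 (adjusted p = 0.049). Both lost the call in at least 2 of the settings that left out a library. Of the 19 membrane proteins tested, 0 were m6A-modified and 1, *Kcnn4*, a potassium channel, was lower in IP (-0.74, adjusted p = 0.044). *Kcnn4* lost the call in 4 of 12 alternatives, with adjusted p-values of up to 0.31. Of the 12 paralogs tested, 0 passed in either direction. With these shares over all genes, counts of 0 or 1 in lists of 12 or 19 are near the background. All these counts and shares come from the fit without a block. With the replicate number as a block, more list genes and more genes in all were m6A-modified. Leaving out a library moved both numbers too, as given in the closing section.

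Set side by side, the RNA change in Kit-lo and the m6A signal in control CFU-E did not rank the members alike. *Tmod1* and *Dmtn* had the same RNA change of 3.77, and log2 values of IP over input of -2.44 and 1.06. *Epb41*, the one m6A-modified member, had an RNA change of 0.51. No correlation was computed over 7 genes.

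The letters GGACT, a form of the sequence that METTL3 methylates, were counted in the longest annotated transcript of each gene (GENCODE vM21). This count was added after the m6A values were seen. *Tmod1* had 0 in 3158 bases, as had 6.89% of the 11441 genes tested in the m6A table and found in the annotation, and 4 of its 5 annotated transcripts had none. *Epb41* had 14 in 8302 bases, or 1.69 per kb, the highest density of the 8, against a median of 1.02 per kb for all genes. The other members had 1.22 per kb (*Epb42*) to 1.54 per kb (*Slc4a1*). Other forms of the sequence were not counted, and a link between these counts and the m6A values was not tested. The transcripts were mostly long. *Sptb* had 10394 bases, *Ank1* 8366 and *Add2* 8182, above at least 94.1% of genes, while *Tmod1* was close to the median of 3420 bases.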

How the data were processed

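The values deposited were estimated counts per gene, not normalised, with one column per library. They are sums over the transcripts of a gene, estimated by the authors with kallisto 0.48.0 against mm10 (GRCm38) from reads cleaned with fastp 0.23.4. Libraries were made by Smart-seq2 (RNA-seq) and by SLIM-seq (m6A), whose primer carries a molecular identifier. Use of that identifier and of strand in counting is not given in the sources used here. The labels name GRCm39 as well as mm10. All values were whole numbers. Library totals were 17429262 to 21329242 (RNA-seq) and 19421059 to 37142742 (m6A), and the biological coefficient of variation was 19.1% and 21.9%. For members with few counts, such as *Tmod1*, counting error adds to it. The 6 ProE samples were not analysed here.

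Counts were fitted in R 4.3.3 with edgeR 4.0.16 (TMM, filterByExpr, glmQLFit and glmQLFTest, Benjamini-Hochberg over all genes tested), in 1 fit per experiment without a block. The standard error is the absolute log2 fold change over the square root of F. DESeq2 1.42.0, other normalizations and filters, a replicate block and leaving out each library were alternatives. The study's TPM filter was not run. On simulated counts edgeR recovered 91 of 113 genes changed by 2 on the log2 scale and 55 of 87 changed by 1 in the RNA-seq design (11979 genes), with 13 false calls, and 89 of 102 and 32 of 98 in the m6A design (11447 genes), with 9. Calls in the simulation used the adjusted p alone, without the fold threshold of a DEG. Far fewer genes were changed in it than were called in the data.

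The 8 genes and all lists were chosen with earlier results of these data known. Genes were named by a rule: the 8 members, *Mettl3* and *Kit*, list genes that were DEGs or their partners, and the 5 nearest profiles. Of the list genes, 2 are counted in the lists but not reported here by name. Coordinates and lengths came from GENCODE vM21 (GRCm38), which held 99.9% of the symbols, and promoters from RefSeq. Ratios had 0.5 added to each count. Exact tests used scipy 1.17.1.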

Additional observations from a re-analysis of the deposited data

How the results depend on the processing

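In the RNA-seq all 8 genes kept their direction under 14 alternatives (DESeq2, 3 other normalizations, 2 other filters, a replicate block, no fold threshold and each library left out), and 6 rose in each of them, or 8 without a fold threshold. Without the fold threshold 4128 genes in all and 25 list genes were called, against 2631 and 15. The share of DEGs that rose was 55.2%, 61% with library sizes alone, 50.7% with the upper quartile and 52.8% without the low-count filter. The log2 fold change of *Tmod3* turned to 0.042 with library sizes alone and lay between -0.077 and 0.054 with a library left out, and that of *Mettl3* between -0.118 and 0.003. Per kb of all exons, control levels were 10.6 (*Sptb*), 5.95 (*Ank1*), 20.9 (*Epb41*), 4.70 (*Epb42*), 2.97 (*Dmtn*) and 52.5 (*Add2*), and Kit-lo levels 32.2, 14.4, 29.7, 8.27, 40.5 and 61.8, with 58.8 for *Slc4a1* and 4.06 for *Tmod1*.

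The m6A calls were less stable. Over the settings that left out a library, 0 to 2 members, 0 to 5 list genes and 164 to 1358 genes in all were m6A-modified, against 1, 3 and 904. Without IP replicate 2 *Dmtn* was called (1.37, adjusted p = 0.044). The upper quartile gave 1451 genes in all and 6 list genes, and DESeq2 and the filter at 1 CPM 5 list genes each. Library sizes alone moved the median of all genes from 0.06 to 0.21 and the upper quartile to 0.18. *Ank1* turned to 0.108 and 0.072 under them and lay between -0.157 and 0.018 with a library left out. The cause of these changes was not tested. A lone IP or input library was assumed to vary like the other group.

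With the replicate number as a block, 6 members and 2495 genes in all were DEGs. In the m6A 1783 genes in all and 7 list genes were m6A-modified, and *Add2* was lower in IP (-0.53, adjusted p = 0.022). Same-numbered libraries had correlated deviations of -0.07 to 0.03 (RNA-seq) and 0.21 (m6A, where 2 pairs are too few to show pairing).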
